A study of Homo sapiens with 12 samples.

Results

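The aryl hydrocarbon receptor gene AHR, the gene of its partner ARNT and 5 genes that the receptor is known to switch on, AHRR, TIPARP, CYP1A1, CYP1B1 and ALDH3A1, were followed in HK-2 cells exposed to a compound that the labels call Ota. The 7 genes were chosen by name, and their probe sets were those whose platform annotation gave that symbol alone. They had 16 probe sets of 54675 on the array, 7 of them for ARNT, 4 for CYP1B1 and 1 for each other gene. Of the 7 genes 5 passed a filter on low values (a log2 value over 4 on at least 3 of 12 arrays), as did 10729 of 19775 genes in all. CYP1A1 and ALDH3A1 did not pass it.

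HK-2 cells are human proximal tubule epithelium that was immortalized with papillomavirus genes. The 4 groups held 3 Affymetrix arrays each, from cells given a high dose of Ota for 72 h, the control vehicle for 72 h, Ota for 24 h, or the control vehicle for 24 h. All were grown in a medium with EGF, hydrocortisone, insulin, transferrin and selenite and were treated when nearly confluent. The labels give neither the full name of Ota nor its amount, and call the arrays biological replicates without saying whether each came from its own culture; the p-values below measure the spread among these arrays, which may be technical.

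The receptor is a transcription factor of the bHLH-PAS family that waits in the cytosol bound to the chaperone HSP90. A ligand such as a dioxin, a polycyclic aromatic hydrocarbon or a tryptophan product sends it to the nucleus, where it pairs with ARNT and binds a short core motif near its targets. CYP1A1 and CYP1B1 encode enzymes that oxidize such ligands, ALDH3A1 encodes an aldehyde dehydrogenase, and AHRR and TIPARP encode proteins that damp the receptor. CYP1A1 is the most widely used readout of an active receptor.

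The core motif GCGTG, counted on both strands, is shown in capitals in the promoters of 3 targets on which the results below turn: AHRR, which was seen on only 1 group's arrays, TIPARP and CYP1A1. Each window runs from 250 bases before to 50 bases after an annotated start, 5′ to 3′ on the gene's strand, from RefSeq on GRCh38.p14. A match on the other strand reads CACGC here. Where a table gives several starts for a gene, those whose window holds the motif are printed.
AHRR first start, chr5:321464-321763, strand +: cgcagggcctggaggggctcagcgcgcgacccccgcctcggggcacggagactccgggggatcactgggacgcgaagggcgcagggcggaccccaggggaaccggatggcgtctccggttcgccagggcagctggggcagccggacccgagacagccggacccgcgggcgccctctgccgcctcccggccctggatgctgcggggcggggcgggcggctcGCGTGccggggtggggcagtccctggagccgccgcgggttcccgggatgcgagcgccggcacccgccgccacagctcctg
AHRR second start, chr5:322360-322659, strand +: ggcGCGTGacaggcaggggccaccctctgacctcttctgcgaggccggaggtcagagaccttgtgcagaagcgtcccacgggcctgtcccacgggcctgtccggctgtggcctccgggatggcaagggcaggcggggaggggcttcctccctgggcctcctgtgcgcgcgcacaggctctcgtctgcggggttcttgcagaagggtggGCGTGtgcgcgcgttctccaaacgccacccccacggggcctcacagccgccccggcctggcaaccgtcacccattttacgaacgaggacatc
TIPARP first start, chr3:156674340-156674639, strand +: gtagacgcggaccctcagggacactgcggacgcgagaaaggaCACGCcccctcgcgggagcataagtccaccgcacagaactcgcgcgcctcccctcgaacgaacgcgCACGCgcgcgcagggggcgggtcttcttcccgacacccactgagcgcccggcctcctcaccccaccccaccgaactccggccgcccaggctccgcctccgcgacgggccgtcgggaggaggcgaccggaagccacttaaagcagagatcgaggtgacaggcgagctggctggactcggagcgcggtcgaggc
CYP1A1, chr15:74725479-74725778, strand -: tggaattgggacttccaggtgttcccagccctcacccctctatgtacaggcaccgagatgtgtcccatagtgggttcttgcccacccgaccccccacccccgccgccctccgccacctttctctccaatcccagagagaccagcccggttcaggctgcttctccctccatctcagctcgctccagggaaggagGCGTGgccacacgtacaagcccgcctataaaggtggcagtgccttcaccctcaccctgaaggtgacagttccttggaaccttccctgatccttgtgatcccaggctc

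The first AHRR window held 1 match, at position -30 from the start, and the second held matches at -247 and -42. The TIPARP window held matches at -208 and -142, both on the other strand. That of CYP1A1 held 1, at -57. Of 8 windows listed for 5 of the 7 genes, 5 held the motif, against 36.5% of 35116 windows in the table. The longer form TNGCGTG, which contains the core, was in 1 of the 8, the first AHRR window, and in 5.51% of all windows. These are matches of letters and not tested sites.

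Measures of whole arrays differed between the groups and bear on each direction given below. Ota minus control, the array median over the tested genes differed by -0.28 at 72 h and by -0.56 at 24 h in log2 units. Probe sets of the poly-A spike-ins, control RNAs of bacterial genes, were brighter on Ota arrays by 0.89 (72 h) and 1.85 (24 h; exact permutation test, two-sided p = 0.1 for each of these 4 differences, the smallest that 3 against 3 arrays allow). Ribosomal 18S RNA read 1.34 (72 h) and 1.58 (24 h) higher with Ota, each with that same smallest p. The 3′ minus 5′ signal of ACTB, a sign of RNA quality, averaged 1.97 ± 0.33 on Ota arrays against 1.39 ± 0.15 on control arrays of 72 h (SD, n = 3, exact permutation p = 0.1). For 24 h the averages were 1.23 ± 0.15 on Ota arrays against 1.18 ± 0.20 on control arrays (SD, n = 3, exact permutation p = 0.9). The part of 18S RNA and of ACTB in the results was not tested. Replicate 2 of the Ota group at 24 h stood somewhat apart, with the lowest array median (7.22, against 7.46 and 7.53 for the other two) and the lowest mean correlation with its own group (0.965), so results are also given without it. Over all tested genes the fold changes had log2 medians of -0.11 (72 h) and -0.24 (24 h). Of 15 markers of kidney epithelium 5 passed the filter, among them PAX8 and KRT18, while the defining transport and uptake genes of the proximal tubule LRP2, CUBN, AQP1, SLC34A1 and SLC22A6 stayed at or under 4 on all arrays. Of those 5, 3 fell at 72 h (PAX8, CDH2 and CDH6) and 2 at 24 h (PAX8 and KRT18), and 0 rose at either time. Of all tested genes 35.2% fell and 24.8% rose at 72 h, and 40.5% fell and 20.8% rose at 24 h. The list's medians were -0.48 at 72 h and 0.13 at 24 h. KRT8 was at 0.60 at 72 h and 0.13 at 24 h without passing. None of 6 endothelial or 5 leukocyte markers passed the filter; 3 of 5 fibroblast, 2 of 3 podocyte and 1 of 4 collecting duct markers did, and their part in the results was not tested. Of the fibroblast markers LUM rose at both times, COL1A1 fell at 24 h (-1.94) and DCN did not pass. The collecting duct marker AQP3 rose at both times, and the podocyte marker PTPRO rose at 72 h.

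Gene changes are log2 fold changes ± SE from a limma fit of all 12 arrays, and "rose" or "fell" means a Benjamini-Hochberg adjusted p under 0.05 over all 10729 genes. At 72 h 1 of the 5 measured genes passed, against 60.1% of all genes: 1 fell, against 35.2%, and 0 rose, against 24.8%. ARNT was the gene that fell. At 24 h 4 passed, against 61.3% of all genes: 3 fell, against 40.5%, and 1 rose, against 20.8%. The gene that rose, AHRR, passed the filter only through the group in which it was high, so its entry into the fit was tied to its rise.

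**Figure D1:**
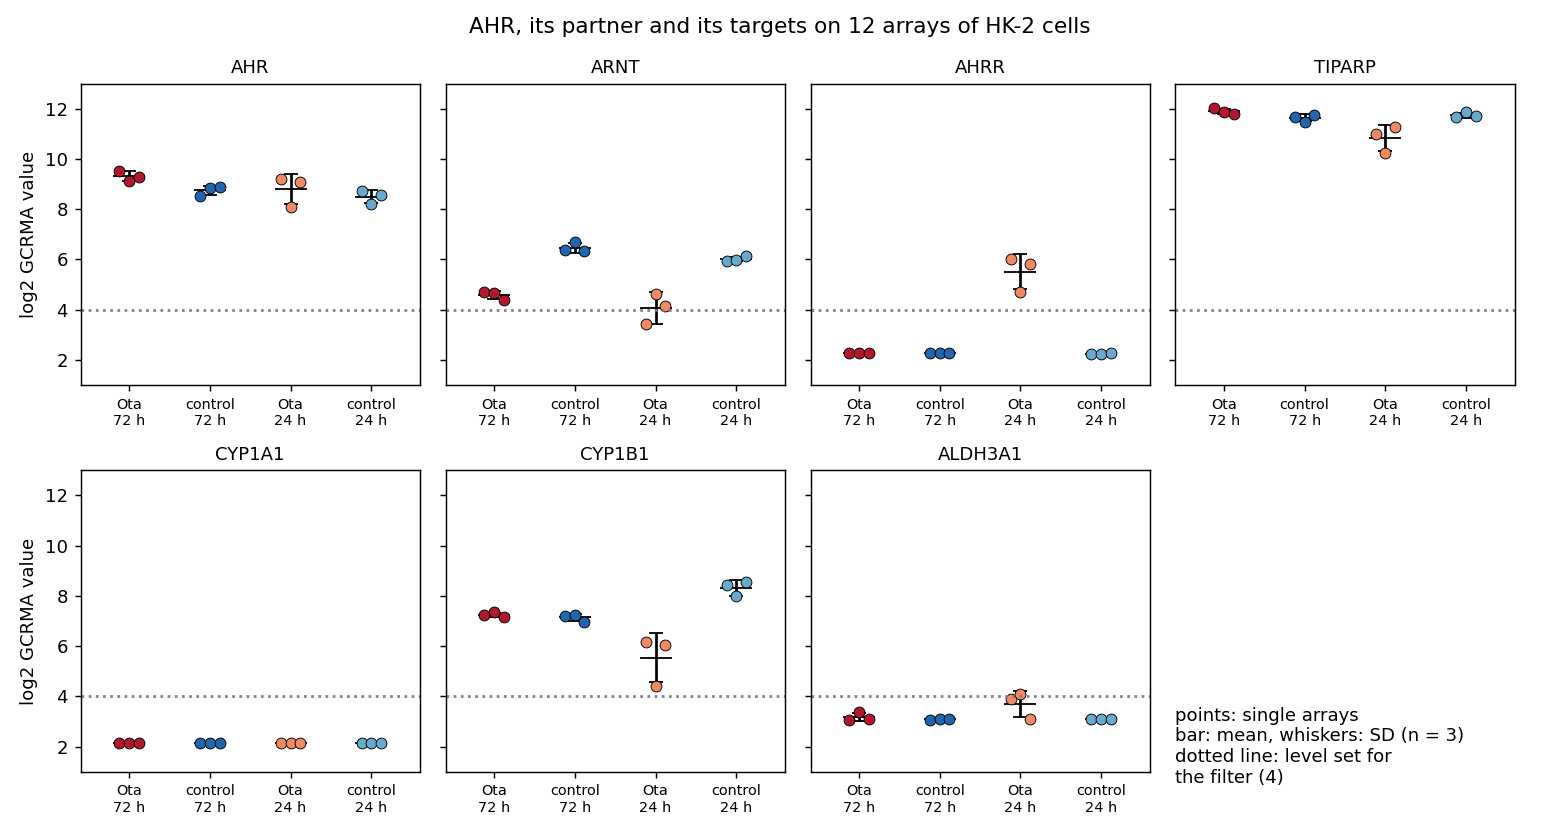
Log2 GCRMA values (vertical axis) of the 7 genes on each array, by group (horizontal axis). Points are arrays, bars are means with SD (n = 3), and the dotted line is the filter level of 4; ARNT and CYP1B1 are shown by their brightest probe set. AHRR lies above 4 on the 3 Ota arrays of 24 h and near 2.3 elsewhere, ARNT is lower on all Ota arrays, and CYP1A1 stays near 2.1 throughout.

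AHR, the receptor itself, did not pass the test at either time. At 72 h its log2 values were 9.52, 9.14 and 9.27 with Ota, against 8.54, 8.84 and 8.89 in controls. All Ota arrays lay above all controls, as they did for 32.2% of all genes, while the arrays were apart in either direction for 73.7%. The difference was 0.55 ± 0.26 (limma adjusted p = 0.0895, 95% interval -0.02 to 1.13). At 24 h the values were 9.20, 8.11 and 9.09 with Ota, against 8.72, 8.22 and 8.57 in controls, and the groups overlapped (0.30 ± 0.26, limma adjusted p = 0.347, 95% interval -0.28 to 0.88). Without replicate 2 of the 24 h Ota group AHR passed at both times, at 0.55 for 72 h (limma adjusted p = 0.0119) and 0.65 for 24 h (limma adjusted p = 0.0104). The SE of the 72 h difference was 0.17 without that array and 0.26 with it, since all groups share 1 estimate of the spread. Over 24 alternatives the adjusted p ranged from 4.7e-04 to 0.39 at 72 h and from 3.7e-04 to 0.79 at 24 h. With the spike-in scaling the direction was the other way at both times, -0.33 at 72 h and -1.55 at 24 h.

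ARNT, the partner that the receptor needs in order to bind DNA and that hypoxia-inducible factors also use, fell with Ota at both times. In its brightest probe set, 218221_at, the log2 values at 72 h were 4.70, 4.67 and 4.39 with Ota, against 6.38, 6.70 and 6.33 in controls. At 24 h they were 3.41, 4.64 and 4.15 with Ota, against 5.94, 5.99 and 6.12 in controls. The groups did not overlap at either time (Ota lower throughout for 41.5% of all genes at each time; either direction for 65.7% at 24 h), and the Ota arrays came down close to the filter level. The change was -1.88 ± 0.25 at 72 h (limma adjusted p = 5.78e-05) and -1.95 ± 0.25 at 24 h (limma adjusted p = 4.24e-05). It was larger in size than that of 85.3% of tested genes at 72 h and 83.4% at 24 h. The effect at 72 h minus that at 24 h was 0.08 ± 0.36 (limma adjusted p = 0.877, 95% interval -0.71 to 0.86). In bulk samples fewer cells that express a gene and less of its RNA per cell cannot be told apart.

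The other ARNT probe sets with signal went the same way. Of the 7 probe sets 3 stayed under 4 on all arrays and give no direction. Among these, 233714_at passed at 24 h in the fit below, at 0.04 ± 0.01 (limma adjusted p = 0.0259), with background values near 2.3 throughout. In a fit of all 41097 probe sets with 1 symbol, with no filter, 26.3% of probe sets passed at 72 h (12.2% rose, 14.1% fell) and 36.6% at 24 h (19.3% rose, 17.4% fell). In it 230619_at changed by -2.61 ± 0.27 at 72 h and -2.58 ± 0.27 at 24 h (limma adjusted p = 1.1e-04 and 1.2e-04). Probe set 231016_s_at changed by -1.91 ± 0.36 at 72 h and -2.96 ± 0.36 at 24 h (limma adjusted p = 0.0034 and 2.6e-04). On its arrays the 24 h Ota values were 2.49, 2.79 and 2.20, and those of 72 h were 4.22, 2.96 and 4.19, a difference of 1.30 ± 0.36 for 72 h against 24 h (limma adjusted p = 0.0260) that 218221_at (0.52 ± 0.27) and 230619_at (0.36 ± 0.27) did not pass; 218222_x_at was at -0.45 ± 0.34, also without passing. The dimmest of the 4, 218222_x_at, fell at 72 h (-1.59 ± 0.34, limma adjusted p = 0.0067) and did not pass at 24 h (-0.69 ± 0.34, limma adjusted p = 0.129), with control means of 3.86 and 3.41. ARNT fell under all 24 alternatives at each time, with log2 fold changes of -2.76 to -1.59 at 72 h and -3.80 to -1.39 at 24 h.

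**Figure D2:**
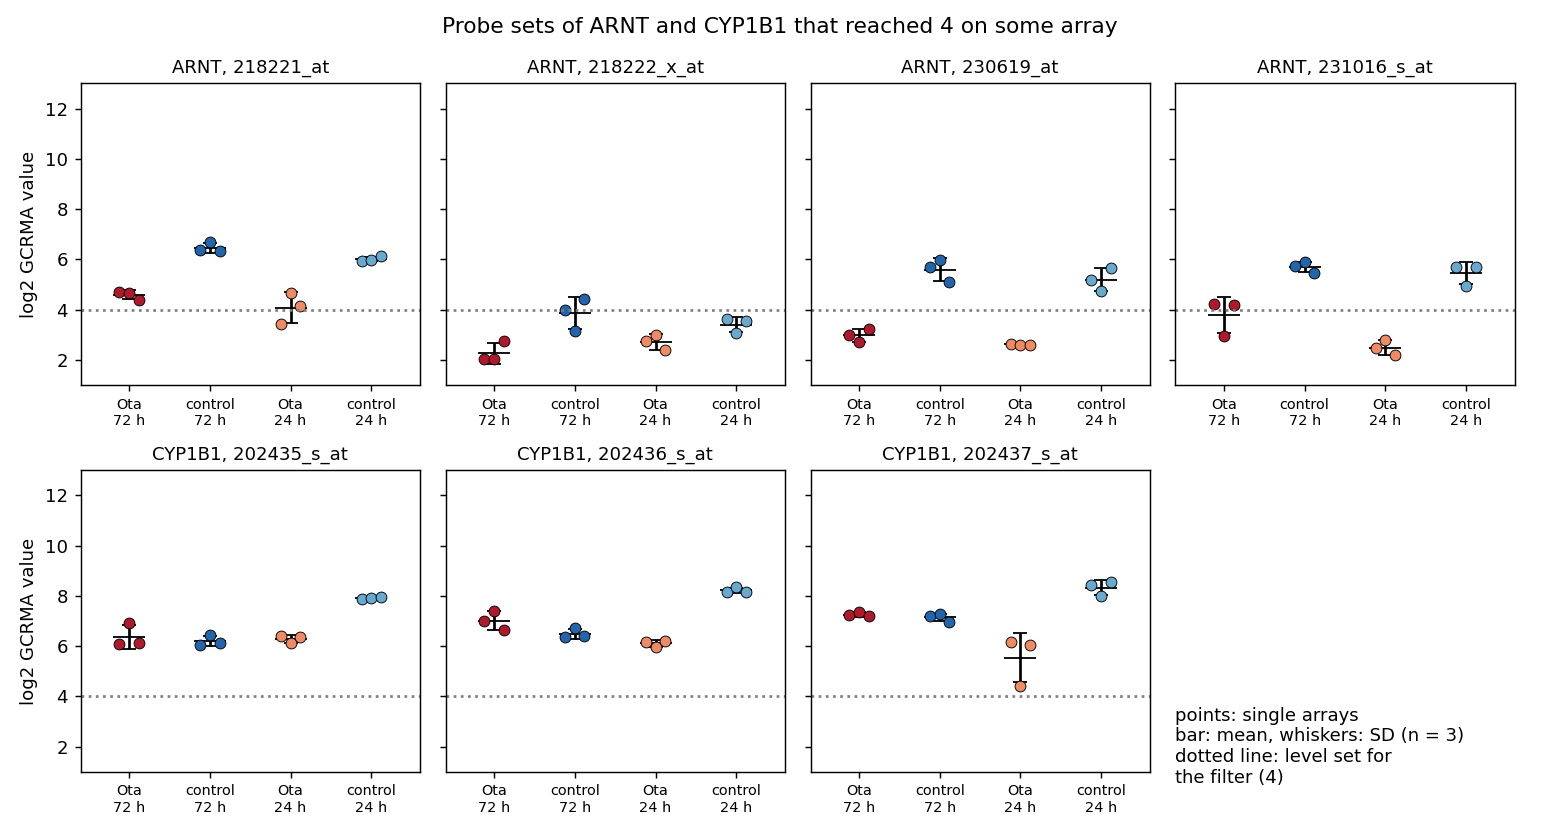
Log2 GCRMA values (vertical axis) by group (horizontal axis) of the probe sets of ARNT (upper row) and CYP1B1 (lower row) that reached 4 on some array. Points are arrays and bars are means with SD (n = 3). The 4 ARNT probe sets have lower Ota than control means at both times, and the 3 CYP1B1 probe sets have their highest mean in the 24 h controls.

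AHRR, a relative of the receptor that competes for ARNT and represses the same targets, was over the filter level on the 24 h Ota arrays alone. At 72 h its values were 2.28, 2.28 and 2.28 with Ota, against 2.26, 2.26 and 2.27 in controls, all near background and without a meaningful order. At 24 h they were 6.00, 4.71 and 5.82 with Ota, against 2.23, 2.25 and 2.26 in controls. The 24 h difference, 3.27 ± 0.26, therefore sets a moderate signal against a near-background one, and its size is uncertain. AHRR passed the filter only through the 24 h Ota arrays, so no p-value of the filtered fit is given for it here. In the fit of all 41097 probe sets without a filter the 24 h difference was 3.27 ± 0.27 (limma adjusted p = 3.2e-05). Within Ota cells the log2 fold change of 72 h against 24 h was -3.23 ± 0.27 in that unfiltered fit (limma adjusted p = 6.0e-05). AHRR was 1 of 76 genes (0.708% of those tested) that were over 4 on all 3 Ota arrays of 24 h and had a mean under 4 in the other 3 groups. It ranked 20 among them by its 24 h Ota mean of 5.51, whose median over the 76 was 4.91. Over the 23 alternatives that kept AHRR the 24 h difference lay between 1.42 (spike-in scaling) and 3.83 (each array centred on its median). A filter at 6 left the gene out.

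The liver markers ALB and SERPINA1 were higher in the same group as AHRR, while APOA1 and TTR stayed near background. Of 4 liver markers 2 passed the filter, and ALB, the albumin gene, had a mean of 3.24 with Ota and 2.83 in controls at 72 h, and of 7.36 with Ota and 2.77 in controls at 24 h. Like AHRR, ALB passed the filter only through the 3 Ota arrays of 24 h, so its level is given with no test. SERPINA1 rose at 24 h by 0.75 ± 0.28 (limma adjusted p = 0.036), while APOA1 and TTR stayed at or under 4 on all arrays. The mean of the 4 markers per array was 4.61 to 5.10 with Ota and 4.66 to 4.74 in controls at 72 h, and 5.85 to 6.42 with Ota and 4.76 to 4.95 in controls at 24 h. Of the 4, ALB differed most at 24 h, where APOA1 was at 2.40 with Ota and 2.34 in controls, and TTR at 2.25 and 2.23. The part of these markers in the AHRR result was not tested.

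TIPARP encodes an ADP-ribosyltransferase that modifies the receptor and speeds its loss. At 72 h its values were 12.01, 11.89 and 11.79 with Ota, against 11.69, 11.47 and 11.76 in controls. All Ota arrays lay above all controls, as for 32.2% of all genes, by a narrow margin. The difference did not pass (0.26 ± 0.22, limma adjusted p = 0.332, 95% interval -0.22 to 0.74). At 24 h the values were 11.00, 10.26 and 11.26 with Ota, against 11.66, 11.85 and 11.72 in controls, with no overlap. Ota was lower throughout for 41.5% of all genes at 24 h, and the arrays were apart in either direction for 65.7%. TIPARP fell by 0.91 on the log2 scale (SE 0.22, limma adjusted p = 0.00356), or by 0.62 without replicate 2 of the Ota group. Centring each array on its median ended this call (-0.35, limma adjusted p = 0.110), and over 24 alternatives the adjusted p ranged from 3.2e-07 to 0.11. From 24 h to 72 h TIPARP rose in Ota cells, by 1.06 ± 0.22 (limma adjusted p = 0.00140), while its change in control cells was -0.10 ± 0.22 (limma adjusted p = 0.789).

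CYP1A1, the enzyme gene most tied to this receptor, stayed at background level in every group. Its single probe set read between 2.13 and 2.16 on all 12 arrays. Of all probe sets with 1 symbol 48.9% stayed under 4 on every array, so such a reading is common. In the fit without a filter the difference was 0.01 ± 0.01 at 72 h (limma adjusted p = 0.432) and 0.02 ± 0.01 at 24 h (limma adjusted p = 0.163). At this level a low transcript cannot be told from none. ALDH3A1 came near the filter level on 2 arrays: it read 3.07, 3.37 and 3.11 with Ota at 72 h, against 3.07, 3.09 and 3.09 in controls. At 24 h it read 3.89, 4.09 and 3.10 with Ota, against values near 3.09 on each control array. The 24 h difference, 0.60 ± 0.21, did not pass in that fit (limma adjusted p = 0.0569, 95% interval 0.11 to 1.08), and neither did that of 72 h (0.10 ± 0.21, limma adjusted p = 0.760).

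CYP1B1, which encodes the other ligand-oxidizing enzyme and, unlike CYP1A1, has a known basal level in many cultured cells, fell with Ota at 24 h and did not differ past the test at 72 h. In its brightest probe set, 202437_s_at, the values at 72 h were 7.22, 7.35 and 7.18 with Ota, against 7.20, 7.26 and 6.97 in controls (0.11 ± 0.37, limma adjusted p = 0.824, 95% interval -0.70 to 0.91). At 24 h they were 6.16, 4.41 and 6.03 with Ota, against 8.42, 7.98 and 8.57 in controls. The 24 h groups did not overlap (Ota lower throughout for 41.5% of all genes, either direction for 65.7%). The fall was -2.79 ± 0.37 (limma adjusted p = 4.61e-05), or -2.23 without replicate 2 of the Ota group. Probe set 202436_s_at, which read 6.15, 5.96 and 6.22 with Ota and 8.16, 8.33 and 8.17 in controls at 24 h, fell by 2.11 on the log2 scale (SE 0.18, limma adjusted p = 3.2e-05). Probe set 202435_s_at read 6.38, 6.11 and 6.37 with Ota and 7.87, 7.93 and 7.94 in controls and fell by 1.63 (SE 0.21, limma adjusted p = 4.1e-04). Replicate 2 was thus low in the first probe set and close to the other two Ota arrays in these. The fourth, 202434_s_at, stayed near 2.3 on all arrays.

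CYP1B1 also changed between the times in the control cells. The control values of 202436_s_at were 6.35, 6.72 and 6.38 at 72 h, against 8.16, 8.33 and 8.17 at 24 h, and the log2 fold change of 72 h against 24 h was -1.74 ± 0.18 (limma adjusted p = 5.0e-04 over all probe sets, of which 9.36% passed and 4.72% fell). For 202435_s_at it was -1.71 ± 0.21 (limma adjusted p = 0.0013). In the gene fit, 1 of the 5 measured genes passed in control cells, against 25.5% of all genes: CYP1B1 fell, against 13.3%, and 0 rose, against 12.2%. By 202437_s_at that fall was -1.18 ± 0.37 (limma adjusted p = 0.0354). It did not pass without replicate 1 or 3 of the 24 h controls, any replicate of the 72 h controls or replicate 1 of the 72 h Ota group, nor with the spike-in scaling, without a filter or with every probe set fitted, and over 23 alternatives the adjusted p ranged from 4.8e-05 to 0.13. In Ota cells, where 26.0% of all probe sets passed (15.7% rose, 10.3% fell), the 3 probe sets disagreed: 72 h against 24 h gave 1.72 ± 0.40 for 202437_s_at and 0.91 ± 0.18 for 202436_s_at (limma adjusted p = 0.0127 and 0.0049), but 0.08 ± 0.21 for 202435_s_at (limma adjusted p = 0.876).

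Between the times the effect of Ota differed for 3 of the 5 measured genes, against 49.5% of all genes. Taken as the effect at 72 h minus that at 24 h, the difference rose for 2 of them, against 29.6% of all genes, and fell for 1, against 19.9%. It was 2.89 ± 0.52 for CYP1B1 (limma adjusted p = 8.9e-04) and 1.16 ± 0.31 for TIPARP (limma adjusted p = 0.00895). The gene for which it fell was AHRR (-3.25 ± 0.37), which passed the filter only through the 24 h Ota arrays. Its place in these counts was thus tied to its level in that group. In the fit of all probe sets without a filter AHRR was at -3.25 ± 0.39 (limma adjusted p = 6.5e-04). For AHR the difference was 0.26 ± 0.37 (limma adjusted p = 0.592, 95% interval -0.56 to 1.07). The calls of CYP1B1 and TIPARP also passed without replicate 2 of the 24 h Ota group, at 2.33 and 0.87, and AHRR was then at -3.65. Within Ota cells 3 of the 5 genes passed, against 60.3% of all genes: 2 rose from 24 h to 72 h, CYP1B1 and TIPARP, against 37.0% of all genes, and 1 fell, AHRR, against 23.3%. The limit given above for AHRR holds for this count too.

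**Figure D3:**
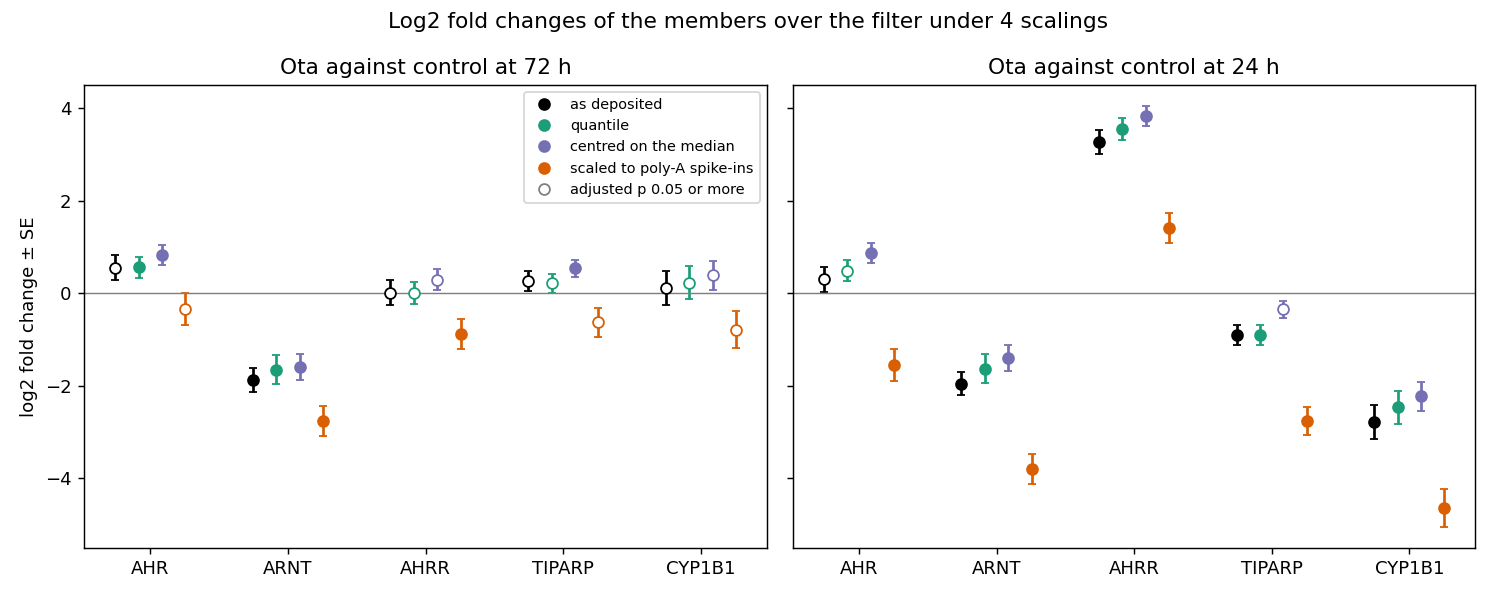
Log2 fold change ± SE (vertical axis) of Ota against control for the 5 measured genes (horizontal axis) at 72 h and at 24 h, as deposited and under 3 other scalings. Filled points passed an adjusted p of 0.05. ARNT lies below 0 at both times, AHRR above 0 and CYP1B1 below 0 at 24 h under each scaling, while AHR lies above 0 under 3 scalings and below 0 with the spike-ins.

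ARNT at either time, and AHRR, CYP1B1 and TIPARP at 24 h, kept their direction under the 3 other scalings. AHR at either time, and AHRR, CYP1B1 and TIPARP at 72 h, none of which passed as deposited, turned with the spike-ins. With each array centred on its median, AHR rose by 0.84 at 72 h and 0.86 at 24 h, and TIPARP rose by 0.54 at 72 h. With the spike-in scaling, under which 62.6% of all genes fell at 72 h and 93.5% at 24 h, ARNT changed by -2.76 at 72 h and -3.80 at 24 h. CYP1B1 changed by -4.64 and TIPARP by -2.76 at 24 h under it.

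Other genes of the pathway were taken from 5 lists, and 28 of their genes passed the filter. Among the chaperones of the resting receptor, 2 of 3 measured genes rose and 0 fell at 72 h (24.8% and 35.2% of all genes), with a median of 0.81 against -0.11 for all genes. At 24 h 1 rose and 0 fell (20.8% and 40.5% of all genes), with a median of -0.20 against -0.24. HSP90AB1 had means of 14.37 with Ota and 13.27 in controls at 72 h and rose by 1.10 ± 0.15 at 72 h and 0.57 ± 0.15 at 24 h (limma adjusted p = 5.1e-05 and 0.00523), but was at 0.21 (72 h) and -1.28 (24 h) when scaled to spike-ins. PTGES3, the cochaperone p23, rose by 0.81 ± 0.13 at 72 h (limma adjusted p = 2.1e-04; -0.08 with the spike-in scaling) and was at -0.20 ± 0.13 at 24 h. HSP90AA1 did not pass at 72 h (0.31 ± 0.15, limma adjusted p = 0.102) or 24 h (-0.22 ± 0.15, limma adjusted p = 0.245). At 72 h all 3 genes rose with quantile normalization or centring, and 0 with the spike-in scaling. Under the spike-in scaling all 3 fell at 24 h.

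Of 7 measured genes of the bHLH-PAS family other than AHR, ARNT and AHRR, 3 rose and 2 fell at 72 h, and 2 rose and 2 fell at 24 h. Of all genes 60.1% passed at 72 h and 61.3% at 24 h, so that 5 and 4 of 7 are near the general rate. Their median was 0.38 at 72 h and -0.34 at 24 h, against -0.11 and -0.24 for all genes. SIM1, a developmental factor that also pairs with ARNT, had means of 7.35 with Ota and 9.62 in controls at 72 h. It fell by 2.27 ± 0.27 at 72 h (limma adjusted p = 2.1e-05) and by 1.03 ± 0.27 at 24 h (limma adjusted p = 0.0058), and both probe sets fitted went this way, but the 24 h call was lost with centring (-0.47). The circadian factor gene CLOCK rose by 1.44 ± 0.14 at 72 h and 1.31 ± 0.14 at 24 h (limma adjusted p = 5.5e-06 and 1.1e-05), its relative NPAS2 by 0.96 ± 0.24 and 0.94 ± 0.24 (limma adjusted p = 0.00462 and 0.00544). With the spike-in scaling CLOCK was at 0.55 and -0.54 and NPAS2 at 0.08 and -0.91, and 2 further CLOCK probe sets were at -0.15 and -0.72 at 72 h. Their partner gene BMAL1 fell by 0.97 ± 0.19 at 72 h and by 0.50 ± 0.19 at 24 h (limma adjusted p = 9.8e-04 and 0.0412), and was at 0.06 at 24 h with centring. Without replicate 2 of the 24 h Ota group 1 gene of the family fell at 24 h, as BMAL1 no longer passed.

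Of 7 measured coactivators and corepressors 2 rose and 1 fell at 72 h, and 1 rose and 2 fell at 24 h. Of all genes 60.1% passed at 72 h and 61.3% at 24 h, and 7 genes are too few to read a different share. Their medians were 0.01 and -0.08, against -0.11 and -0.24 for all genes. NCOA1, a coactivator of the receptor, rose at both times (0.60 ± 0.21 and 0.95 ± 0.21, limma adjusted p = 0.0283 and 0.00213), but was at -0.29 and -0.90 with the spike-in scaling, and 1 of its 4 probe sets was at -0.65 at 24 h. MED1, a Mediator subunit, rose at 72 h (0.67 ± 0.16, limma adjusted p = 0.00369; -0.22 with the spike-in scaling). NRIP1, a corepressor, fell at 72 h (-1.04 ± 0.21, limma adjusted p = 0.00115). SMARCA4, a chromatin remodeller, fell at 24 h (-1.14 ± 0.25, limma adjusted p = 0.00177), though not past the test with centring (-0.58). CREBBP, an acetyltransferase, also fell at 24 h (-0.81 ± 0.27, limma adjusted p = 0.0201), but the call was lost with centring (-0.25), and its other measured probe set was at 2.35. Without replicate 2 of the 24 h Ota group 2 genes of this list fell at 72 h, NRIP1 and CREBBP.

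Of 8 measured genes among other reported targets of the receptor, 1 rose and 4 fell at 72 h, while 5 rose and 0 fell at 24 h. Of all genes 24.8% rose and 35.2% fell at 72 h, and 20.8% rose and 40.5% fell at 24 h. The median of the 8 was -0.43 at 72 h and 0.66 at 24 h, against -0.11 and -0.24 for all genes. One of the 5 rises, that of CYP1A2 (0.30), had to differ, since the gene was over 4 only on the 3 Ota arrays of 24 h, with means of 4.12 with Ota and 3.82 in controls at that time. NQO1, a quinone reductase that NRF2 also switches on, had means of 6.99 with Ota and 9.47 in controls at 72 h, and of 10.27 with Ota and 9.61 in controls at 24 h. It fell by 2.48 ± 0.34 at 72 h (limma adjusted p = 5.6e-05) and was at 0.66 ± 0.34 at 24 h (limma adjusted p = 0.111), with its 3 probe sets alike in direction at each time. At 24 h it passed in opposite directions with centring (1.22) and the spike-ins (-1.19). STC2, a stanniocalcin, rose at both times (3.05 ± 0.35 and 4.41 ± 0.35, limma adjusted p = 1.6e-05 and 8.9e-07), also with the spike-in scaling (2.16 and 2.56), but its other probe set was at 0.86 and -0.00. In the probe set that rose, the 24 h means were 8.5 with Ota and 4.1 in controls. The control mean was close to the filter level, so the size at 24 h is uncertain. HES1, a Notch target, rose at 24 h (1.19 ± 0.19, limma adjusted p = 2.3e-04; -0.66 with the spike-in scaling and -0.66 in its other probe set). CDKN1B, a cell cycle inhibitor, fell at 72 h (-0.97 ± 0.21, limma adjusted p = 0.00164). With centring all 8 rose at 24 h; scaled to the spike-ins, 1 of them rose while 7 fell. Without replicate 2 of the 24 h Ota group 6 rose at that time.

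Enzymes that turn tryptophan into kynurenine products, some of which bind the receptor, were mostly near background. TDO2 and IDO1, which catalyse the first step, stayed at or under 4 on all arrays. Of the 3 genes that passed the filter, 1 fell and 0 rose at 72 h, and 3 fell and 0 rose at 24 h, where 35.2% and 40.5% of all genes fell. Their medians were -0.14 and -1.64, against -0.11 and -0.24 for all genes. QPRT fell at both times (-0.96 ± 0.25 and -2.05 ± 0.25, limma adjusted p = 0.00554 and 2.4e-05), though the 72 h call was lost with centring (-0.68) and its other probe set was at 0.13 at 24 h. KYNU fell at 24 h (-1.64 ± 0.49, limma adjusted p = 0.0114) and was at 1.17 ± 0.49 at 72 h. AADAT fell at 24 h (-0.61 ± 0.18, limma adjusted p = 0.0122), with means of 4.65 with Ota and 5.25 in controls, not far above the filter level. With centring QPRT passed at 24 h and the other two did not, and KYNU rose at 72 h (1.45).

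**Figure D4:**
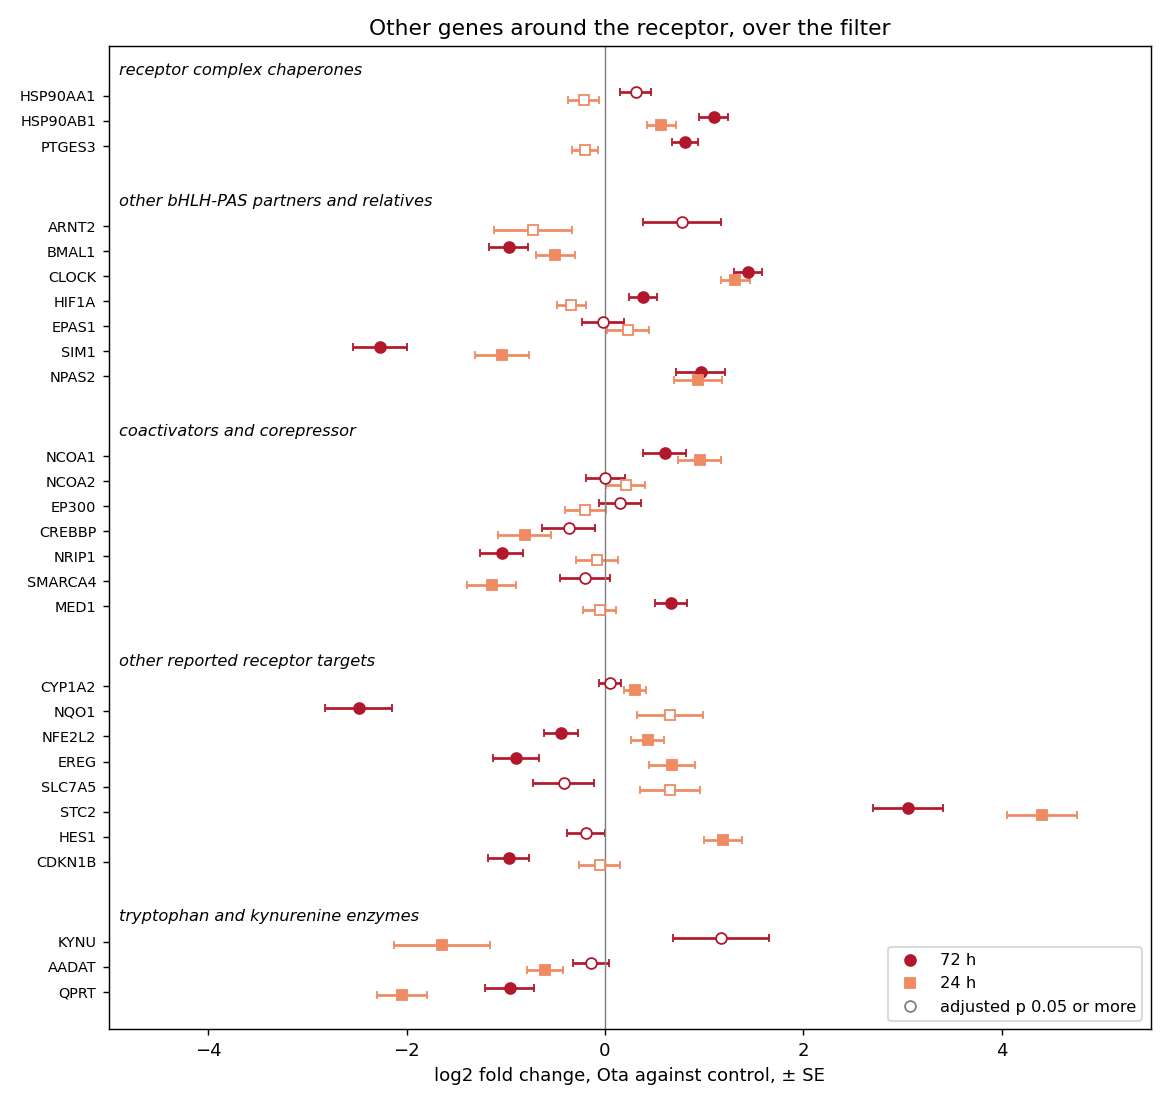
Log2 fold change ± SE (horizontal axis) of Ota against control for the measured genes of the 5 lists (rows), at 72 h (circles) and 24 h (squares). Filled symbols passed an adjusted p of 0.05. STC2 lies farthest to the right at both times, and NQO1 lies at -2.48 at 72 h and at 0.66 at 24 h.

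For each measured gene the 3 genes with the most similar pattern were found by Pearson's r of log2 values over the 12 arrays. The arrays share 4 groups and array-wide shifts, so these values describe a pattern and carry no test. LINC01933, a noncoding RNA, the activin receptor gene ACVR1C and the protease gene CORIN had r of 0.999, 0.997 and 0.997 with AHRR, and CORIN averaged 5.43 in Ota cells at 24 h and 2.26, 2.24 and 2.21 in Ota cells at 72 h and in control cells at 72 h and 24 h. COG1, of a Golgi tethering complex, the phosphatase gene DUSP22 and NAT14 had r of 0.983, 0.982 and 0.981 with ARNT. TSFM, a mitochondrial elongation factor, ARHGAP21 and FASTKD1 had r of 0.976, 0.971 and 0.966 with CYP1B1. ZNF71, the glycosyltransferase gene MGAT1 and COX10, of heme A synthesis, had r of 0.982, 0.979 and 0.978 with TIPARP. USP38, a deubiquitinase, ZNF432 and POLR1B, a subunit of RNA polymerase I, had r of 0.947, 0.940 and 0.932 with AHR.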

How the data were processed

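The authors deposited 1 log2 expression value for each probe set and array; per the submitters' processing notes these come from GCRMA, whose version, the arrays normalized together and any later filter are not given in the sources used here. No further transformation was applied. The annotation gave 1 symbol for 41097 of 54675 probe sets, several for 1801 and none for 11777; 0 columns belonged to no sample. Probe sets with 1 symbol that exceeded 4 on 3 or more of 12 arrays were kept, and the brightest stood for its gene. The means of the 4 groups were estimated by limma 3.58.1 in R 4.3.3 (residual degrees of freedom 8, prior 3.56) with two-sided tests, and p-values were adjusted by the Benjamini-Hochberg method across the 10729 genes. Array-wide measures were compared by exact permutation. The number of arrays limits the precision.

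The members and lists were chosen with earlier results of these data known. Named were the 7 members, from each list up to 4 genes past the test by size with up to 2 of the other direction, and the 3 most similar genes of each member. ALB, CYP1A2, the 76 genes seen at 24 h alone and the other cell type markers named were chosen after their values were seen. NCOA3 and SERPINB2 of the lists had no probe set with 1 symbol here.

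Equal replicate numbers of Ota and control arrays correlated in their deviations from the group means at 24 h (r = 0.125, 0.231 and 0.271) and not throughout at 72 h (-0.052, 0.139 and 0.192), so a fit with the number as a block was an alternative. On simulated data with 50 genes changed at each size, the 24 h comparison of 10729 genes recovered 4%, 58%, 96% and 100% at log2 changes of 0.5, 1, 2 and 4, and 2.27% of its calls were unchanged genes. The genes changed there were a far smaller share than the 61.3% called in the data at 24 h. These rates therefore do not measure the recovery in the data.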

Additional observations from a re-analysis of the deposited data

Results flagged for a closer look

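The effect of Ota differed between the times for 3 genes by a test of the difference itself, the effect at 72 h minus that at 24 h in the limma fit. For AHRR it was -3.25, with a signal on the 24 h Ota arrays, through which alone the gene passed the filter, and near-background values elsewhere. For CYP1B1 it was 2.89, with a lower level in the 72 h than in the 24 h controls. For TIPARP it was 1.16, with log2 fold changes of 0.26 at 72 h and -0.91 at 24 h. Of all genes 49.5% passed this test.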

How the results depend on the processing

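Of 585 recomputed log2 fold changes of the 5 measured genes in 5 comparisons, 543 kept their direction and side of the threshold, 21 passed anew, 10 no longer passed and 11 reversed. The reversals with the spike-in scaling were AHR at 72 h (-0.334) and 24 h (-1.552), AHRR (-0.873), CYP1B1 (-0.783) and TIPARP (-0.631) at 72 h, and AHRR in control cells over time (-0.018). For the difference between times AHR was at -0.024 and ARNT at -0.204 with centring, ARNT at -0.030 with quantile normalization and -0.251 without replicate 1 of the 24 h Ota group, and AHR at -0.091 without replicate 2; over all single arrays left out, AHR ranged from -0.091 to 0.458 and ARNT from -0.251 to 0.364. For none of the reversed values other than AHR at 24 h and AHRR at 72 h with the spike-ins (limma adjusted p = 3.8e-04 and 0.0257) did the new direction pass, and the cause was not tested; the AHRR value compares near-background readings on both sides.

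The count of these genes past the threshold at 72 h, 1 as reported, was 2 with quantile normalization, the spike-in scaling or the 6 arrays of the comparison alone, and 3 with centring or array weights; leaving out arrays it ranged from 1 to 2. For control cells over time, 1 as reported, it was 0 with the spike-in scaling, no filter, every probe set fitted, an adjusted p under 0.01, or without _x_at and _s_at probe sets, which leave out all those of CYP1B1, and 2 with array weights or the comparison's arrays alone; leaving out arrays it ranged from 0 to 1. For Ota cells over time, 3 as reported, it was 5 with the spike-in scaling or array weights. A filter at 6 left no value for AHRR, and using the comparison's arrays alone changes nothing for the difference between times, which uses all 12. The estimate of array weights stopped before its tolerance was reached.

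Counts over all genes moved by over 1.5 times to 10187 at 24 h with the spike-in scaling (6579 as reported), to 3994 at 72 h (6445), 4040 at 24 h, 3868 in Ota cells over time (6466) and 1210 in control cells (2739) with a log2 fold change of at least 1, and in control cells to 1280 with the spike-in scaling, 1547 at an adjusted p under 0.01, 5434 with array weights and 4309 with those arrays alone. Of calls at 24 h 34.0% were rises as deposited, 45.0% with quantile normalization, 61.9% with centring and 1.49% with the spike-in scaling. At 72 h these shares were 41.3%, 44.4%, 56.1% and 7.63%. The replicate block changed no call of the 5 genes; TIPARP at 24 h had a limma adjusted p of 0.00446 with the replicate block and CYP1B1 one of 8.2e-05. With the block the counts were 1, 4, 3, 1 and 3 in the 5 comparisons, as without it. Values near background limit AHRR, CYP1A1, ALDH3A1, KYNU and the dim ARNT probe sets.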
